A study of Homo sapiens with 6 samples.

Results

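Interferon-stimulated genes and the STAT and IRF factors that drive them were followed in MDA-MB-231 cells, a human triple-negative breast cancer line, through the mRNA bound to tagged ribosomes. The 42 genes were taken by name from a list of well-known members of this response, 42 of the 21619 genes counted in every library. They were chosen with earlier results of these data known. MDA-MB-231 cells expressing ribosomal protein L10a fused to EGFP were used throughout, so untreated cells carried the tag too. In translating ribosome affinity purification (TRAP), beads coated with an antibody to GFP recover the tagged ribosomes with the mRNA on them. All cells were first kept for 24 h in 0.2% serum. Untreated cells then received neither factor (0 ng/mL of each), the lower dose was 30 ng/mL of the chemokine CXCL12 with 10 ng/mL of the growth factor IGF1, and the higher dose was 300 ng/mL CXCL12 with 100 ng/mL IGF1, each for 6 h. There were 2 libraries in each group, lettered a and b and labelled biological replicates. CXCL12 and IGF1 were always given together, so their effects cannot be told apart, and whether the tagged line is 1 clone is not given in the sources used here. The labels list no treatment with interferon.

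Type I interferons bind a receptor pair at the cell surface whose kinases, JAK1 and TYK2, phosphorylate STAT proteins. STAT2, a partner STAT and IRF9 then form the complex ISGF3, which enters the nucleus and binds the interferon-stimulated response element in the promoters of many antiviral genes. The induced proteins sense viral RNA, block its translation or replication, restrict entry of viruses, and attach the ubiquitin-like protein ISG15 or ADP-ribose to other proteins. Many of these genes, STAT2 and IRF9 among them, are themselves induced by interferon, and cells keep a low tonic level of this programme without infection.

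Reads on genes came to 26255079 to 30280322 a library. The cells held the 8 genes taken as markers of MDA-MB-231, such as VIM with 98538 and 108839 reads in untreated a and b. Of 4 genes of luminal cells, ESR1 and PGR had at most 5 reads in a library, and ERBB2 and GATA3 had 1546 to 2339 and 247 to 319. All 8 markers of the line fell at the higher dose, as did 28.2% of all tested genes. Of 12 marker genes of other cell types, CD3E, CLEC4C and CDH5 were among those at 0 in all libraries, and 6 were tested. The summed level of the 12 went from 41.0 to 42.3 CPM (counts scaled by library size) in untreated libraries to 36.5 to 38.1 CPM at the lower dose and 30.8 to 34.1 CPM at the higher dose, where CD14 and PDGFRB fell. Their part in the results below was not tested. The measurement is of bulk mRNA on ribosomes, so fewer cells expressing a gene, less mRNA in each cell, and less of that mRNA on ribosomes or recovered with them cannot be told apart.

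All 42 members had enough reads to be tested, and 36 of them were well covered, with a mean of at least 100 reads a library. The other 6, DHX58, MX2, USP18, OAS1, IFI44L and RSAD2, had means of 87.2, 79.5, 79.3, 65.2, 17.2 and 16.5 reads and are called thin below. No member failed the filter on low counts. Per length of transcript, in reads scaled to transcript length and library size (RPKM), the untreated cells held most of IFITM3 (461 RPKM), BST2 (332), IFITM2 (201), ISG15 (199) and IFITM1 (84.5). IFIT3 stood at 40.5 RPKM, IFI16 at 35.1 and TRIM25 at 33.4, whereas the signalling factors IRF9, IRF7 and STAT2 stood at 15.1, 12.2 and 9.77. RSAD2 and IFI44L were the lowest, at 0.198 and 0.0725 RPKM. Coverage thus ran from the membrane restriction factors, with a mean of 10467 reads a library for IFITM3, down to 16.5 for RSAD2.

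**Figure D1:**
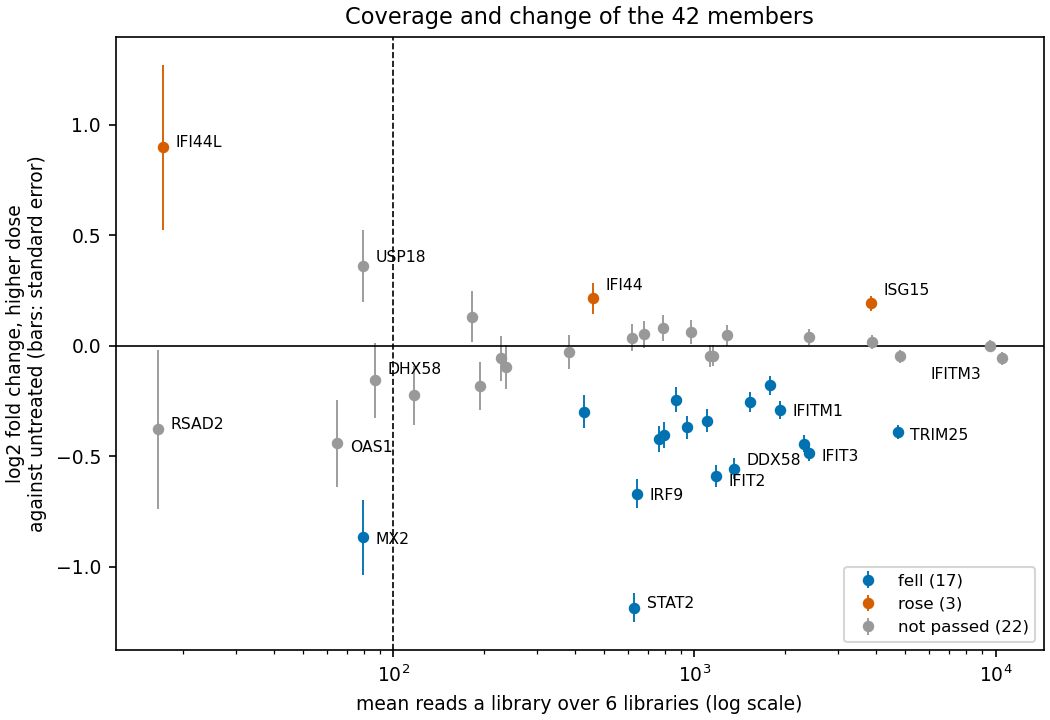
Mean reads a library (x axis, log scale) and log2 fold change at the higher dose against untreated (y axis) for the 42 members. Bars are standard errors, the dashed line marks 100 reads, and colours give members that fell (17), rose (3) or did not pass edgeR's adjusted p of 0.05 (22). The thin members left of the line have the widest bars, and STAT2 lies lowest.

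At the higher dose, 17 of the 42 members fell and 3 rose (edgeR quasi-likelihood test, Benjamini-Hochberg adjusted p under 0.05 over 13548 genes). STAT2 fell furthest, to less of its untreated level than any other member, followed by the GTPase gene MX2, by IRF9, by the translation inhibitor IFIT2 and by the RNA sensor DDX58. ISG15, IFI44 and IFI44L rose, though ISG15 and IFI44 did not once a trend on transcript length was taken out of each library. The share of members that fell was 40.5%, where 28.2% of all tested genes fell, and 7.14% of members rose, where 28.1% of all genes did. As the members were chosen with earlier results of these data known, these shares are no independent evidence of a direction. Among genes with a mean of at least 100 reads, 32.6% fell and 32.7% rose, and 16 of the 36 well-covered members fell and 2 rose. The median log2 fold change of the members was −0.17, and −0.14 in the well-covered ones, against −0.0008 over all tested genes. The count of rises went to 1 without untreated b or without higher dose b. With falls of at least 1.5-fold required as well, 4 members remained (STAT2, MX2, IRF9 and IFIT2), or 9.52%, against 4.08% of all genes. A large share of all genes thus moved each way. Most of the falls were by less than 1.5-fold, and rises were not counted at that cut. The estimated biological coefficient of variation between libraries of a group was only 1.79%.

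At the lower dose, STAT2, MX2, IRF9, IFIT1, IFIT2 and IFIT3 were again among those that fell. There 15 members fell (35.7%, against 15.9% of all genes) and 3 rose (7.14%, against 16.7%), with a median log2 fold change of −0.067 against −0.0021 over all genes. The 3 rises, IFITM2, ISG15 and UBE2L6, went to 0 without untreated a or lower dose a and to 1 without untreated b or lower dose b. Between the doses, 14 members were lower at the higher dose (33.3%, against 17.6% of all genes) and 2 were higher (4.76%, against 16.4%). Of these, IFIT1 and OAS2 lost the call without lower dose a or higher dose b, PARP14 without higher dose a, SP100 without lower dose a or either higher-dose library, and MX2 without any 1 of the libraries compared. The comparisons of each dose with untreated cells share the untreated libraries, so their calls are not independent. In 16 members (38.1%) all libraries were ordered downward from untreated to lower to higher dose without overlap between groups, as in 18% of all genes. Only ISG15 and USP18 (4.76%) were ordered upward in the same way, as were 18% of all genes. The downward order held for STAT2, IRF9, DDX58, IFIT1, IFIT2, IFIT3, OAS2, PARP14, PARP9, DTX3L, TRIM25, HERC5, HERC6, MX2, IFI16 and PML.

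**Figure D2:**
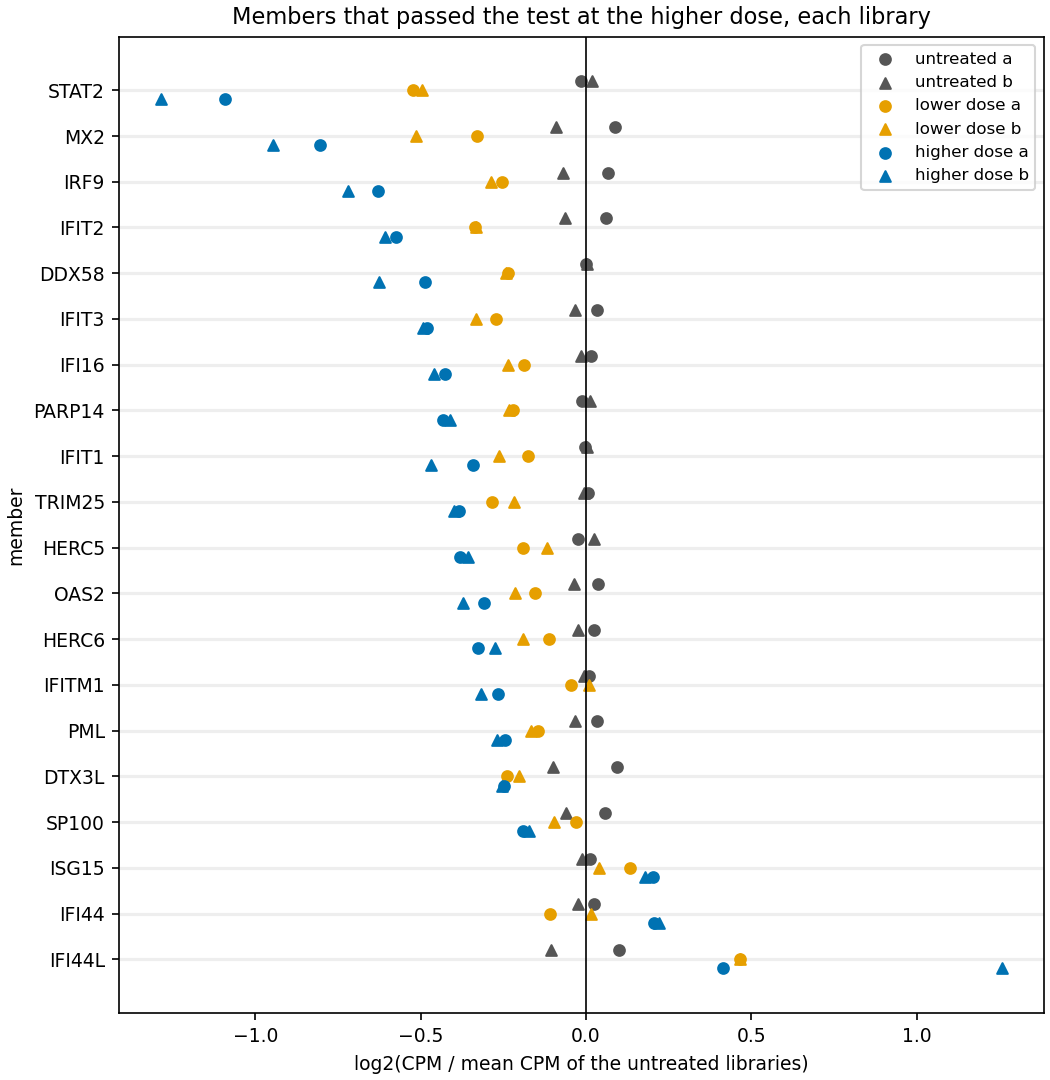
Each library's CPM relative to the mean of the untreated libraries (x axis, log2 scale) for the 20 members that passed the test at the higher dose. Circles are replicate a and triangles replicate b, in grey for untreated, orange for the lower and blue for the higher dose. The blue points of STAT2 lie beyond −1 and both lie apart from the orange ones, and the IFI44L libraries of the higher dose lie far from each other.

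STAT2, the member of ISGF3 that carries its main activation domain, stood at 30.6 and 31.3 CPM in untreated libraries a and b, at 21.5 and 21.9 CPM at the lower dose, and at 14.5 and 12.7 CPM at the higher dose. No library of one group reached into the next. Its log2 fold change was −0.51 (SE 0.060, adjusted p = 8.38e-10) at the lower dose and −1.19 (SE 0.066, adjusted p = 3.11e-22) at the higher dose, a fall of 56.0%. Only 51 of the 13548 tested genes, STAT2 included, were as low or lower on this scale (0.376%). IRF9, the DNA-binding partner of STAT2 in that complex, was at 28.99 and 26.4 CPM untreated, 23.2 and 22.7 CPM at the lower dose and 17.9 and 16.8 CPM at the higher dose. It too fell in order with dose, with log2 fold changes of −0.27 (SE 0.061) and −0.67 (SE 0.064) and adjusted p of 0.000384 and 2.66e-13. IRF9 lies wholly inside a longer readthrough transcript of GENCODE v29, AL136295.5, which is not among the counted genes. Reads of the pair cannot be separated by sequence. IRF7, which amplifies interferon production, did not pass at either dose. Its libraries, 24.5 and 23.5 CPM untreated and 25.3 and 24.4 CPM at the higher dose, overlapped, with a log2 fold change of 0.051 (SE 0.060, adjusted p = 0.49). So of these 3 signalling factors, both ISGF3 subunits on the list fell and IRF7 did not pass.

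The promoters of the members were searched on both strands for GAAANNGAAA, the core of the response element that ISGF3 binds. The letters show which members carry this form of the site. Windows of 300 bases, from 250 before to 50 after a RefSeq start (GRCh38.p14), were at hand for 33 of the 42 members, and 21 of them (63.6%, exact 95% binomial interval 45.1% to 79.6%) held at least 1 match in a window. Of all 27305 genes with such windows, 1195 (4.38%) held one. The interval for the members takes them as independent draws, though they were chosen by name and PARP9 and DTX3L share a site. The 250 bases before the start are printed 5′ to 3′ for 4 members, with matches in capitals, adjoining or overlapping matches running together. ISG15 (0.19 in log2 fold change at the higher dose) and IFIT1 (−0.40) both hold the core, as does IFIT3 (−0.49), and STAT2, which fell furthest, has no match in its window.
ISG15, chr1:1013247-1013496 (+ strand): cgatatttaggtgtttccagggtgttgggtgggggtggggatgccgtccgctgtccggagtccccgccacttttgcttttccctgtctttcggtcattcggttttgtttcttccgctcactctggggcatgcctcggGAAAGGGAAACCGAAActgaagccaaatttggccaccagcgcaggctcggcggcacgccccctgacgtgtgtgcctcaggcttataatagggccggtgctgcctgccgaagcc
IFIT1, chr10:89392373-89392622 (+ strand): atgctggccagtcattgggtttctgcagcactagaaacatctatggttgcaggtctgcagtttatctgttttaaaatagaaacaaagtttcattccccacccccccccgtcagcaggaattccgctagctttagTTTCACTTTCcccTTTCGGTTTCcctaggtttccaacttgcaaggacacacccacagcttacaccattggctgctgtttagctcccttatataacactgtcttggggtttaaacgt
IFIT3, chr10:89327747-89327996 (+ strand): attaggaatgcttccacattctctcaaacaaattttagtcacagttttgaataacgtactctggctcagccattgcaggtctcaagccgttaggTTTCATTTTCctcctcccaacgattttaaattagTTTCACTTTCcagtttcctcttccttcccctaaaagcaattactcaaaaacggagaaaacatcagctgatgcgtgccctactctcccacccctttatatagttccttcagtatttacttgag
STAT2, chr12:56360108-56360357 (- strand): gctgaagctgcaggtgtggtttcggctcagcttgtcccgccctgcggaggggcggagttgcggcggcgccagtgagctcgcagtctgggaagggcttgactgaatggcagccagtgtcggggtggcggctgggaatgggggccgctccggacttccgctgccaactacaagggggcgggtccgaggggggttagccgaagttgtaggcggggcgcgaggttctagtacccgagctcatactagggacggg

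In ISG15 a pair of overlapping matches covers bases 113 to 98 before the start. IFIT1 has matches at bases 116 to 107 and 103 to 94 before the start and IFIT3 at 156 to 147 and 122 to 113, all of them read here as TTTCNNTTTC, the core's reverse complement. Shorter stretches, 30 bases around 1 match in each gene, are printed so that the bases beside the core can be read in members that fell (DTX3L, PARP14, HERC5, IFITM1), rose (IFI44) or did not pass (PARP9, OAS3, BST2, IFIT5). The search itself fixed all but the NN of each match.
DTX3L: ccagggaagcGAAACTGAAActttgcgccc
PARP9: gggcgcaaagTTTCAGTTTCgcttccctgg
PARP14: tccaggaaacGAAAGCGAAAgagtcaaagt
HERC5: ctcattacagTTTCCTTTTCcttttcgatt
IFITM1: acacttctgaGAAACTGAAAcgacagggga
IFI44: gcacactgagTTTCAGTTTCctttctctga
OAS3: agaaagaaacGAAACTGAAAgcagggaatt
BST2: tcctttctggGAAACTGAAActgaaaacct
IFIT5: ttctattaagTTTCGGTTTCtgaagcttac

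DTX3L and PARP9 show the same site read from opposite strands, as they lie side by side with starts facing away from each other. The 21 members with the core included 6 that fell at the higher dose, 3 that rose and 12 that did not pass, with a median log2 fold change of −0.057. Their share of falls was near that of all tested genes (28.2%), and fewer rose than among all genes (28.1%). The 12 with a window and no core included 7 that fell (STAT2, IRF9, DDX58, IFI16, TRIM25, HERC6 and SP100), none that rose and 5 that did not pass, with a median of −0.34. These are descriptions of the members that had a window, and a window with no match says only that these letters are not in it. The search asked for NN between the GAAA letters. So gaaacgaaac, with a single base between them in the windows of OAS1, DDX58 and XAF1, was not counted. Nor was its reverse complement in TRIM25, nor GAAA letters with the same spacing in IFI16 and IFI35. All these members are among the 12 with no core. The split therefore does not part members with a response element from those without. The shorter form GAAANNGAA was in windows of 66.7% of these members and 9.86% of all genes.

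**Figure D3:**
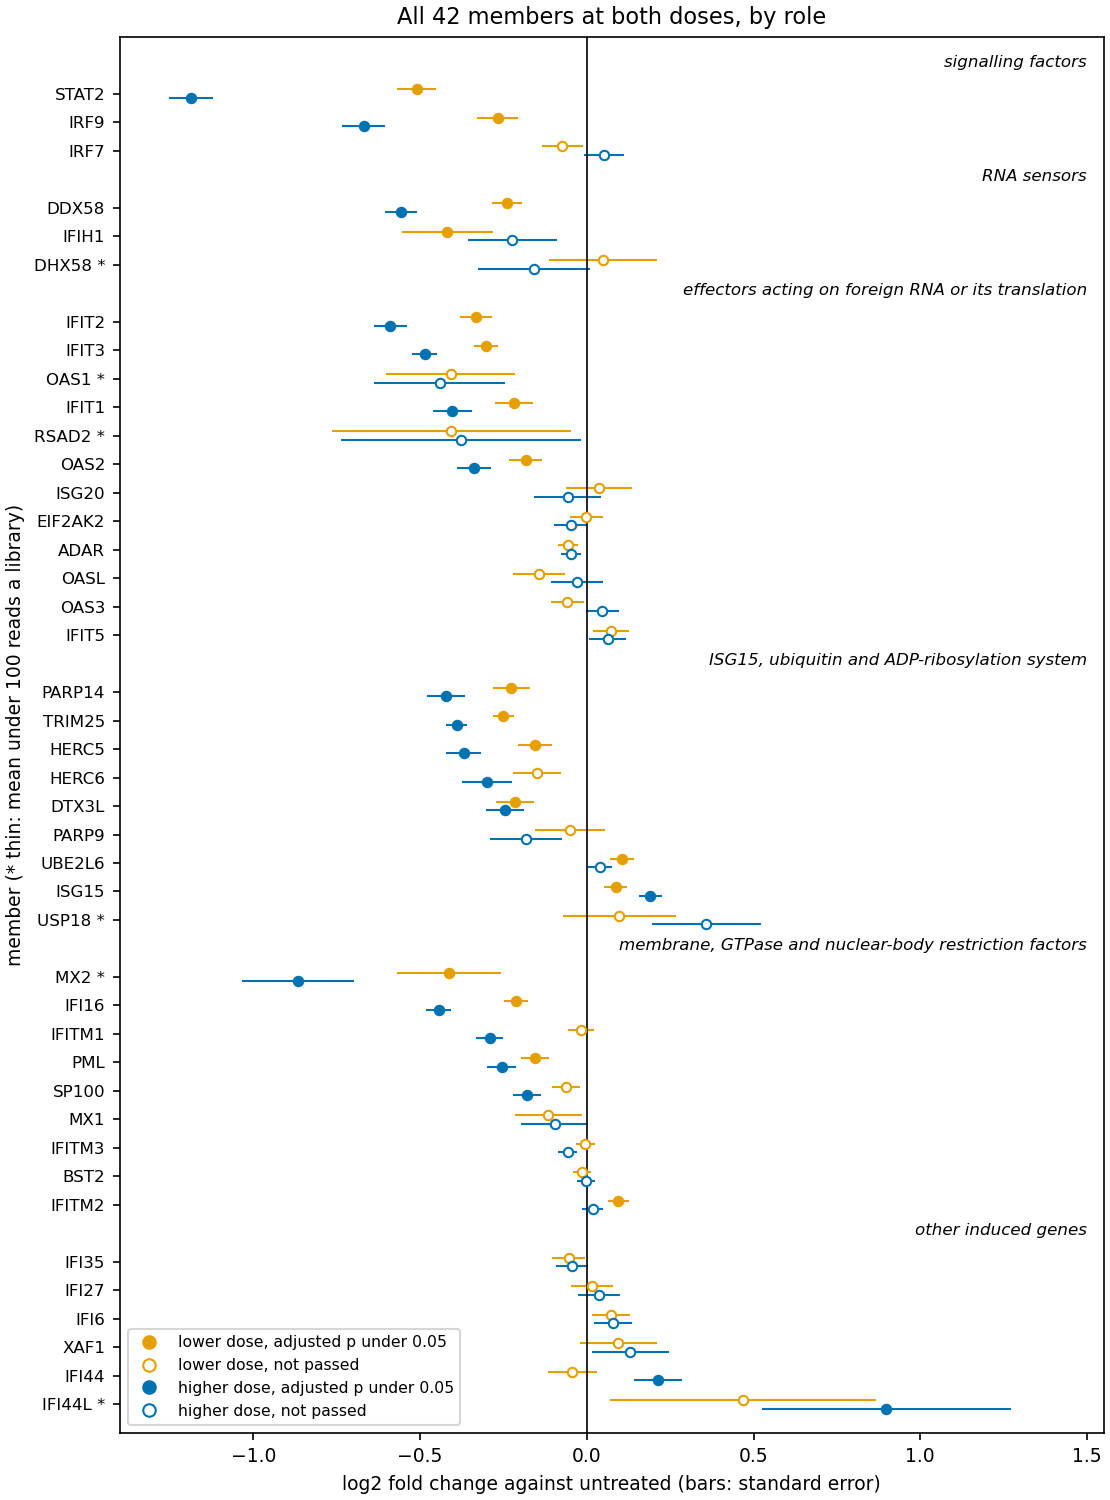
Log2 fold change of all 42 members against untreated (x axis) at the lower dose (orange) and the higher dose (blue), grouped by role, with standard errors. Filled points passed edgeR's adjusted p of 0.05 and a star marks thin members. Most filled points lie left of 0, and those to the right belong to ISG15, UBE2L6, IFITM2, IFI44 and IFI44L.

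Of the cytoplasmic RNA sensors, DDX58 (RIG-I, which recognises RNA ends that carry a triphosphate) fell, while IFIH1 (MDA5, which recognises long double-stranded RNA) and DHX58 (LGP2, their regulator) did not pass at the higher dose. DDX58 was at 56.1 and 56.2 CPM untreated, 47.7 and 47.5 CPM at the lower dose and 40.0 and 36.3 CPM at the higher dose. These groups stood in order without overlap, with log2 fold changes of −0.24 (SE 0.045, adjusted p = 2.66e-05) and −0.56 (SE 0.047, adjusted p = 3.22e-15). IFIH1 was at 5.02 and 4.45 CPM untreated, 3.36 and 3.70 CPM at the lower dose, and 4.08 and 4.002 CPM at the higher dose. It passed at the lower dose only (−0.42, SE 0.14, adjusted p = 0.0144). Its value at the higher dose was −0.22 (SE 0.13, adjusted p = 0.153), and the doses did not differ past the threshold (0.19, SE 0.14, adjusted p = 0.314). Without untreated a or without lower dose a the lower-dose call of IFIH1 was lost (adjusted p = 0.139 and 0.130). DHX58, a thin member, had 96 and 81 reads untreated and 71 and 88 at the higher dose, and its groups overlapped.

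Among the 12 effectors that act on foreign RNA or its translation, 4 fell at both doses (IFIT1, IFIT2, IFIT3 and OAS2) and 8 did not pass at the higher dose, a share of falls near the 28.2% of all genes. The IFIT proteins bind viral RNA ends or the translation factor eIF3. IFIT2 went from 52.5 and 48.3 CPM untreated to 39.9 and 40.0 CPM at the lower dose and 33.9 and 33.0 CPM at the higher dose. IFIT3 went from 103 and 98.0 CPM to 83.1 and 79.6 CPM and then 71.9 and 71.3 CPM. IFIT1 went from 31.8 and 31.9 CPM to 28.2 and 26.5 CPM and then 25.2 and 23.0 CPM. In all 3 genes every library of a group lay below those of the group before it. Their log2 fold changes at the higher dose were −0.59 (SE 0.050, adjusted p = 2.88e-15) for IFIT2, −0.49 (SE 0.037, adjusted p = 1.01e-16) for IFIT3 and −0.40 (SE 0.058, adjusted p = 3.07e-08) for IFIT1. The lower-dose call of IFIT1 (−0.22, adjusted p = 0.00174) was lost without lower dose b (−0.17, adjusted p = 0.0513). IFIT5, which stands beside IFIT1 on chromosome 10 and also binds RNA ends, did not pass, at 34.7 and 31.6 CPM untreated and 35.1 and 34.0 CPM at the higher dose (0.062, SE 0.054, adjusted p = 0.341).

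OAS2, a synthase of the 2′-5′ oligoadenylates that activate RNase L, was at 44.5 and 42.3 CPM untreated, 39.0 and 37.4 CPM at the lower dose and 35.0 and 33.6 CPM at the higher dose. The groups did not overlap, and its log2 fold change was −0.34 (SE 0.050, adjusted p = 6.09e-08) at the higher dose. Its neighbour OAS3, the largest synthase, overlapped between groups (47.5 and 42.8 CPM untreated, 47.5 and 45.5 CPM at the higher dose) with a value of 0.047 (SE 0.049, adjusted p = 0.438). OAS1 was thin, with 79 and 77 reads untreated, 52 and 68 at the lower dose, and 73 and 42 at the higher dose. Its higher-dose libraries lay far apart, and its value of −0.44 (SE 0.20, adjusted p = 0.0507) lay at the threshold. OASL, which binds RIG-I, was at −0.029 (SE 0.077). The kinase gene EIF2AK2 (PKR), which halts translation on double-stranded RNA, stood at −0.049 (SE 0.050), and the RNA editing enzyme gene ADAR at −0.048 (SE 0.031). ISG20, an RNA exonuclease gene, was at −0.057 (SE 0.10), and the thin RSAD2 (viperin), with 14 to 21 reads in each untreated and higher-dose library, was at −0.38 (SE 0.36, adjusted p = 0.387).

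The 9 genes of the ISG15, ubiquitin and ADP-ribosylation system split, with 5 that fell and 1 that rose at the higher dose. Over all genes 28.2% fell and 28.1% rose there. ISG15, the ubiquitin-like modifier itself, was at 128 and 126 CPM untreated, 139 and 130.2 CPM at the lower dose and 146 and 143 CPM at the higher dose. All its libraries were ordered upward without overlap, with log2 fold changes of 0.086 (SE 0.034, adjusted p = 0.0407) and 0.19 (SE 0.033, adjusted p = 1.95e-06). Of the enzymes that attach ISG15, the conjugating UBE2L6 rose at the lower dose (0.10, SE 0.036, adjusted p = 0.0209) and not at the higher one (0.040, SE 0.037, adjusted p = 0.366), and the doses did not differ past the threshold (−0.065, adjusted p = 0.172). The main ligase gene HERC5 fell, from 36.5 and 37.7 CPM untreated to 32.5 and 34.2 CPM and then 28.5 and 29 CPM. Its value was −0.37 (SE 0.053, adjusted p = 2.99e-08) at the higher dose. HERC6, its neighbour and close relative, went from 17.0 and 16.5 CPM to 15.5 and 14.7 CPM and then 13.3 and 13.8 CPM, and passed at the higher dose only (−0.30, SE 0.075, adjusted p = 0.000533), with −0.15 (adjusted p = 0.126) between the doses. USP18, the protease that removes ISG15 and also restrains the interferon receptor, was thin. Its reads, 64 and 77 untreated, 76 and 78 at the lower dose and 95 and 86 at the higher dose, gave 0.36 (SE 0.16, adjusted p = 0.0562).

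In this group, calls at the lower dose were lost more often than those at the higher dose when 1 library was left out. ISG15 lost its lower-dose call without untreated a, untreated b, lower dose a, higher dose a or higher dose b (adjusted p from 0.0518 to 0.571). UBE2L6 lost it without any 1 of the untreated or lower-dose libraries (adjusted p from 0.0545 to 0.130), and HERC5 without untreated b or lower dose a (0.113 and 0.178). The difference in ISG15 between the doses (0.10, adjusted p = 0.00999) was lost without lower dose b or higher dose a (0.327 and 0.101). At the higher dose ISG15 passed with each library left out in turn.

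TRIM25, the ubiquitin ligase that activates RIG-I and can itself attach ISG15, was at 192 and 190.4 CPM untreated, 157 and 165 CPM at the lower dose and 147 and 145 CPM at the higher dose. The groups did not overlap, and its log2 fold changes were −0.25 (SE 0.031, adjusted p = 3.27e-09) and −0.39 (SE 0.031, adjusted p = 4.05e-16). PARP14, an ADP-ribosyltransferase, went from 30.6 and 31.1 CPM to 26.5 and 26.3 CPM and then 22.9 and 23.2 CPM, with −0.42 (SE 0.057, adjusted p = 6.74e-09) at the higher dose. DTX3L, a ubiquitin ligase that works in a complex with PARP9, was at 36.2 and 31.7 CPM untreated, 28.8 and 29.5 CPM at the lower dose and 28.6 and 28.5 CPM at the higher dose. DTX3L reached about the same level at both doses, −0.22 (SE 0.057) at the lower and −0.25 (SE 0.057, adjusted p = 0.000222) at the higher, and its lower-dose call needed untreated a (−0.12 without it, adjusted p = 0.162). PARP9 itself did not pass (−0.18, SE 0.11, adjusted p = 0.145), though its libraries were in descending order, from 7.27 and 7.09 CPM untreated to 6.46 and 6.18 CPM at the higher dose.

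Among the 9 membrane, GTPase and nuclear-body restriction factors, 5 fell at the higher dose and none rose, where 28.2% of all genes fell and 28.1% rose. MX2, a thin member whose GTPase blocks retroviruses at the nuclear pore, had 102 and 104 reads untreated, 84 and 74 at the lower dose and 59 and 54 at the higher dose. In CPM these were 3.88 and 3.43, then 2.91 and 2.56, then 2.09 and 1.90, so no groups overlapped. Its log2 fold change was −0.87 (SE 0.17, adjusted p = 1.42e-05) at the higher dose, the second largest fall of the list. The lower-dose value of −0.41 (adjusted p = 0.0352) was lost without untreated a, lower dose a or lower dose b (adjusted p from 0.0520 to 0.228). Its relative and neighbour MX1, which traps viral nucleoproteins in the cytoplasm, was at 9.55 and 8.01 CPM untreated and 8.44 and 7.90 CPM at the higher dose and did not pass (−0.096, SE 0.10, adjusted p = 0.437).

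IFI16, a nuclear DNA sensor and restriction factor, was at 94.9 and 92.8 CPM untreated, 82.4 and 79.7 CPM at the lower dose and 69.8 and 68.2 CPM at the higher dose. It fell in order with dose, with log2 fold changes of −0.21 (SE 0.036, adjusted p = 5.07e-06) and −0.44 (SE 0.037, adjusted p = 2.79e-15). PML, the scaffold of nuclear bodies, went from 60.0 and 57.3 CPM to 53.0 and 52.3 CPM and then 49.5 and 48.7 CPM (−0.25, SE 0.043, adjusted p = 1.20e-06 at the higher dose). Its lower-dose value (−0.15, adjusted p = 0.00341) did not pass once untreated a was left out (−0.13, adjusted p = 0.0603). SP100, another protein of these bodies, was at 68.97 and 63.6 CPM untreated, 64.9 and 61.9 CPM at the lower dose and 58.1 and 58.8 CPM at the higher dose. It passed at the higher dose only (−0.18, SE 0.042, adjusted p = 0.000283), where both libraries lay below the untreated ones, and differed between the doses (−0.12, adjusted p = 0.0267).

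IFITM1, which blocks fusion of viruses with membranes, was at 72.6 and 71.9 CPM untreated, 70.0 and 72.7 CPM at the lower dose and 60.0 and 58.0 CPM at the higher dose. Its value was −0.017 (SE 0.039, adjusted p = 0.782) at the lower dose, −0.29 (SE 0.040, adjusted p = 1.02e-08) at the higher dose and −0.27 (SE 0.040, adjusted p = 1.54e-07) between them. With a trend on transcript length taken out it fell at the lower dose too (−0.13, adjusted p = 0.00754). IFITM3 did not pass (−0.057, SE 0.028, adjusted p = 0.0763), nor did IFITM2 at the higher dose (0.018, SE 0.033), although IFITM2 rose at the lower dose (0.094, SE 0.032, adjusted p = 0.0191). The higher-dose fall of IFITM3 passed in 5 of 15 alternatives. IFITM2 was −0.077 (adjusted p = 0.0585) between the doses, which passed in 7 of 15 alternatives. That lower-dose call of IFITM2 was lost without untreated a, lower dose a or lower dose b (adjusted p from 0.0543 to 0.126). Of the stretches of 50 bases in the longest transcript of each gene, 42.3% in IFITM1, 17.9% in IFITM3 and 8.36% in IFITM2 also occur in another counted gene, mostly in one another, so the split of reads among these neighbours is uncertain. BST2 (tetherin), which holds budding viruses at the cell surface, was among the most precisely measured members and did not pass, at 336 and 341 CPM untreated and 334 and 342 CPM at the higher dose (−0.0024, SE 0.028, adjusted p = 0.949), but fell with the length trend taken out (−0.16, adjusted p = 2.36e-07).

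The 6 other induced genes held none that fell at either dose and 2 that rose at the higher one. Over all genes 28.1% rose at the higher dose, so these rises are near the background. IFI44, a cytoplasmic protein tied to slower cell growth, was at 15.7 and 15.2 CPM untreated, 14.3 and 15.6 CPM at the lower dose and 17.8 and 18.0 CPM at the higher dose. Both higher-dose libraries lay above all others, with 0.21 (SE 0.072, adjusted p = 0.00927) against untreated and 0.26 (SE 0.072, adjusted p = 0.00362) against the lower dose. The first of these did not pass with untreated b left out (0.19, adjusted p = 0.0703) or with higher dose b left out (0.21, adjusted p = 0.0555), nor the second with lower dose a left out (0.20, adjusted p = 0.0898). The neighbouring IFI44L was thin, with 12 reads in each untreated library, 17 in each lower-dose library, and 16 and 29 at the higher dose. Its value of 0.90 (SE 0.37, adjusted p = 0.0362) rested on higher dose b, without which it was 0.42 (adjusted p = 0.517), and it was also lost without untreated a (0.0780) or untreated b (0.169). IFI6 (0.080, SE 0.057), IFI27 (0.037, SE 0.063), XAF1 (0.13, SE 0.11) and IFI35 (−0.045, SE 0.048) did not pass at the higher dose.

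Several members stand next to each other in the genome, by the order of genes in RefSeq (GRCh38.p14), and their values are given side by side. The fold changes of such neighbours were not tested against each other. At the higher dose the log2 fold changes were −0.59 for IFIT2 and −0.49 for IFIT3, side by side, and −0.40 for IFIT1 beside 0.062 for IFIT5. In the OAS cluster they were −0.44 for OAS1, 0.047 for OAS3 and −0.34 for OAS2. MX2 and MX1 had −0.87 and −0.096, HERC6 and HERC5 had −0.30 and −0.37, and PARP9 and DTX3L had −0.18 and −0.25. USP18 shares 23.4% of its stretches of 50 bases with other genes of GENCODE v29, chiefly its near copy USP41, and XAF1 69.6%, chiefly with the noncoding gene PRAL. USP41 and PRAL are not among the counted genes, with which USP18 and XAF1 share 0.0% and 0.308%. Their counts are thus uncertain to an extent that was not tested.

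Length of the transcript went with the change, in the members as in all genes. Spearman's rho between median transcript length (GENCODE v29) and log2 fold change at the higher dose was −0.353 over the 42 members and −0.273 over 12972 tested genes with a length, and −0.453 and −0.262 at the lower dose. These are descriptions across genes of the same libraries. In transcripts under 1500 nt, 1 of 11 members fell and 2 rose, with a median of 0.018 against 0.15 over all genes of that length. From 1500 to 3000 nt, 5 of 13 fell and none rose, with a median of −0.16 against 0.011. Over 3000 nt, 11 of 18 fell and 1 rose, with a median of −0.35 against −0.084. The members' median lay below that of all genes in each class. The share of all genes called in each class was not counted, so the members' calls by class have no background beside them. With a trend on length taken out of each library, all 17 members still fell at the higher dose (STAT2 −1.15, MX2 −0.84, IRF9 −0.70, IFIT2 −0.54). The members that fell came to 24 of 42, with OAS1, ISG20, IFITM2, IFITM3, BST2, IFI27 and IFI35 added. Of all tested genes 26.9% fell in that fit and 27.9% rose. With that trend taken out ISG15 no longer rose (−0.039, adjusted p = 0.315), nor did IFI44 (0.11, adjusted p = 0.204), while OAS3 (0.16, adjusted p = 0.00356) and IFIT5 (0.13, adjusted p = 0.0395) rose beside IFI44L, so the direction given for ISG15 depends on this choice.

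**Figure D4:**
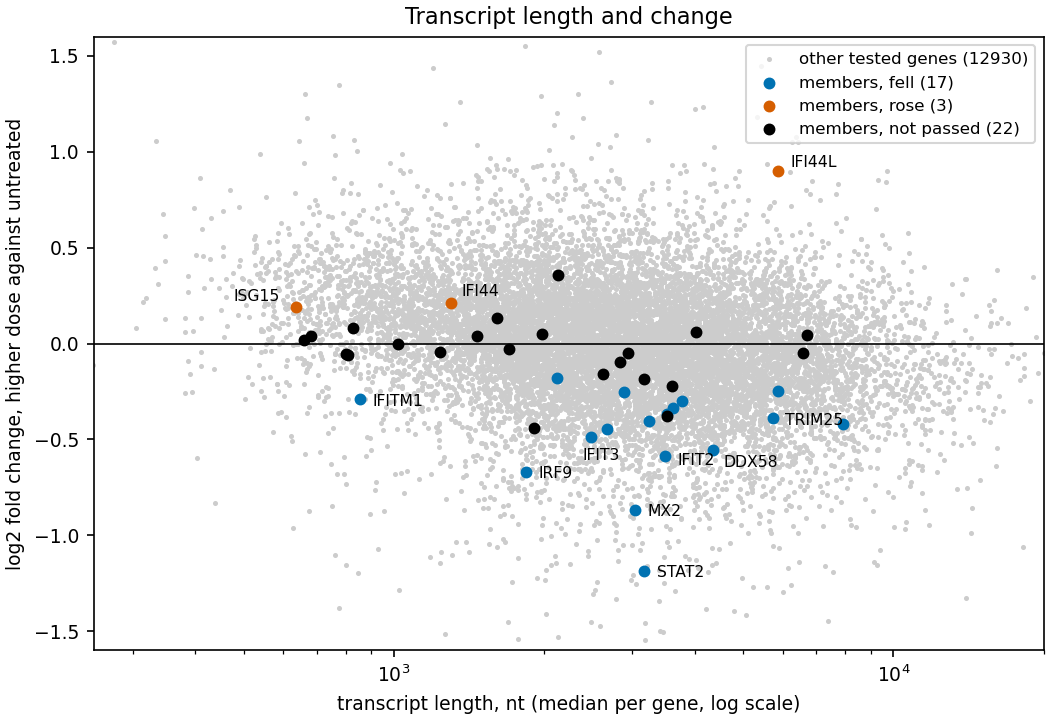
Median transcript length of a gene (x axis, nt, log scale) and log2 fold change at the higher dose against untreated (y axis) for members (coloured, by call) and the other 12930 tested genes with a length (grey), 32 of which lie outside the axes. Members that fell lie mostly to the right of 1500 nt, and ISG15 at the left.

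Upstream of these genes, the interferons themselves were close to absent. Of 21 genes for type I, II and III interferons, 19 had 0 reads in all 6 libraries and none had more than 2 reads in a library, where a count of 0 allows up to 3 reads or 0.0991 to 0.114 CPM. The 9 receptor and kinase genes were all tested, and 3 fell and 2 rose at the higher dose (2 fell and 1 rose at the lower dose), with a median of −0.10. These shares lie near those of all genes (28.2% and 28.1% at the higher dose, 15.9% and 16.7% at the lower) and are no result about the list. JAK1, the kinase shared by all interferon receptors, fell from 110.4 and 108 CPM untreated to 92.9 and 97.9 CPM and then 78.0 and 72.4 CPM (−0.54, SE 0.038, adjusted p = 3.61e-18). IFNGR1, the binding chain of the interferon gamma receptor, fell (log2 fold change −0.33, SE 0.054, adjusted p = 5.83e-07), and IL10RB, shared by the type III interferon receptor, fell as well (−0.16, SE 0.042, adjusted p = 0.00144). The 2 that rose were IFNGR2, the signalling chain of the interferon gamma receptor (0.13, SE 0.046, adjusted p = 0.0130), and the kinase gene TYK2 (0.10, SE 0.034, adjusted p = 0.0101). The chains of the type I receptor, also named here after their values were seen, did not pass at the higher dose, with −0.025 (SE 0.040) for IFNAR1 and 0.0080 (SE 0.090) for IFNAR2.

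Of 11 other STAT and IRF factors, 8 were tested, and 5 fell and none rose at the higher dose (3 fell and none rose at the lower dose), with a median of −0.24. STAT3, which carries signals of the IL-6 family, fell (log2 fold change −0.30, SE 0.033, adjusted p = 1.85e-11), as did IRF2, a repressor of interferon-induced genes (−0.34, SE 0.065, adjusted p = 1.12e-05), and STAT6, the factor of IL-4 signalling (−0.19, SE 0.039, adjusted p = 4.73e-05). Of 11 genes that lead from nucleic acid sensing to interferon, 10 were tested, with 4 that fell and 3 that rose at the higher dose (3 and none at the lower), and a median of −0.076. Over all genes 28.2% fell and 28.1% rose at the higher dose, and 15.9% fell and 16.7% rose at the lower. The higher-dose rises of the sensing genes are thus near the background. MAVS, the adaptor through which DDX58 signals, fell (log2 fold change −0.34, SE 0.032, adjusted p = 6.98e-14) and so did the adaptor gene TMEM173, or STING (−0.27, SE 0.050, adjusted p = 5.16e-06). TRAF3, which relays these signals to kinases, rose (log2 fold change 0.24, SE 0.054, adjusted p = 0.000144).

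Of 17 inhibitors of interferon signalling, 7 fell and 3 rose at the higher dose (2 fell and 2 rose at the lower dose), with a median of −0.10. Over all genes 28.2% fell and 28.1% rose at the higher dose and 15.9% and 16.7% at the lower, so the lower-dose counts are at or below the background. The phosphatase gene PTPN1 fell (log2 fold change −0.41, SE 0.032, adjusted p = 2.56e-16), as did the deubiquitinase gene OTUD5 (−0.37, SE 0.052, adjusted p = 1.20e-08) and PIAS3, an inhibitor of STAT3 (−0.31, SE 0.045, adjusted p = 5.42e-08). SOCS1, an inhibitor of JAK kinases singled out after its value was seen, rose (log2 fold change 0.67, SE 0.16, adjusted p = 0.000298), from 60 and 72 reads untreated to 101 and 110 at the higher dose. A further 58 interferon-stimulated genes outside the 42 gave 55 tested genes, of which 27 fell and 7 rose at the higher dose (18 and 3 at the lower), with a median of −0.13. LGALS3BP, a secreted glycoprotein gene, fell (log2 fold change −0.47, SE 0.027, adjusted p = 7.68e-22) as did the cytidine deaminase gene APOBEC3G (−0.58, SE 0.043, adjusted p = 2.36e-17). PNPT1, a mitochondrial RNA exonuclease gene, rose (log2 fold change 0.43, SE 0.042, adjusted p = 4.70e-13). These lists were compiled with results of the same libraries known and are no independent evidence of a direction.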

How the data were processed

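The authors made the deposited values with HTSeq as whole-number counts of reads on each gene symbol, in 1 file a library for 6 libraries. CASAVA 1.8.1, TopHat 1.4.0 and build hg19 are named per the submitters' processing notes. The sources used here name neither the annotation nor the strand setting. There are 21619 genes and 5 summary lines to a file, which held 9.40% to 10.2% of reads and were left out.

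Groups came from the treatment labels. Counts were fitted in edgeR 4.0.16 (R 4.3.3) with TMM factors (0.997 to 1.003), filterByExpr (13548 genes kept, 8071 not) and a robust two-sided quasi-likelihood test over all 6 libraries (3 residual degrees of freedom), with Benjamini-Hochberg adjustment over all tested genes and a threshold of 0.05. TMM takes most genes as unchanged, so changes are relative to other genes. SE is the size of the log2 fold change divided by the root of its F statistic. The script was tested on simulated data. Replicates differed by more than counting noise (chi-square per degree of freedom 1.52 to 1.98). The p-values rest on a spread between 2 libraries a group that the fit shares across genes. A gene's own spread thus weighs little. DTX3L and PARP14, with untreated standard deviations of 3.17 and 0.384 CPM, had lower-dose SEs of 0.0566 and 0.0554. Floors and intervals cover counting error only.

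CPM are counts over library size. Transcript lengths, also in RPKM, are the median over a gene's GENCODE v29 transcripts with a RefSeq match. Where none has a match, all its transcripts were used. Promoter windows and gene order are from RefSeq (GRCh38.p14), not the build of the counts, and DDX58 was matched as RIGI. The members and gene lists were chosen with earlier results of these data known. Named by rule were all members, with values in each library for those that passed at the higher dose, and the 3 genes of lowest p in each pathway list. Alternatives were DESeq2 1.42.0, other scaling and filters (none, or a mean of 100 reads), only the groups compared, a replicate block, a length offset (lowess span 0.3), both together, and each library left out.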

Additional observations from a re-analysis of the deposited data

How the results depend on the processing

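All 17 falls at the higher dose passed under every alternative in which the gene was tested (MX2 was not tested at a minimum mean of 100 reads). The count was 17 with DESeq2 and 24 with the length offset. Of all genes at the higher dose, 21.1% fell and 21.1% rose with DESeq2, and 26.9% fell and 27.9% rose with the length offset. Rises were less firm. At the lower dose the 3 rises became 0 with DESeq2, 0 with the length offset and 0 with that offset and the replicate block. They were also fewer with any 1 library left out. At the higher dose the 3 rises became 1 with DESeq2 and were fewer with some libraries left out. The length offset also gave 3, but IFI44L, IFIT5 and OAS3 in place of IFI44L, ISG15 and IFI44. Between the doses, DESeq2 gave 9 falls (14 in edgeR) and 0 rises (2 in edgeR), and both counts also shifted with a library left out. Such a fit leaves 1 library in a group. It called fewer of all genes wherever the omitted library was part of the comparison. How far the member calls lost in such fits, here and above, reflect the smaller fit was not tested. The length offset, alone or with the block, reversed ISG15 (−0.058 and −0.059 at the lower dose, −0.039 and −0.040 at the higher), IFITM2 (−0.046 and −0.045, then −0.21 and −0.21) and, at the higher dose, IFI27 (−0.18 and −0.18). The cause was not tested. Over all genes DESeq2 called 2617 at the lower dose (4418 in edgeR), 2823 between the doses (4612) and 5721 at the higher dose (7626). With DESeq2, 10.1% of all genes rose at the lower dose, and 10.7% fell and 10.1% rose between the doses. Replicate letters did not pair the libraries (correlations of deviations −0.053, 0.074 and −0.045). With the replicate block, 15 members fell and 3 rose at the lower dose, 18 and 3 at the higher, and 14 and 2 between doses. Of all genes in that fit, 15.5%, 28% and 17.3% fell and 16.4%, 27.8% and 16% rose, in the same order. OAS1 (adjusted p = 0.0507) passed at the higher dose in 11 alternatives. A minimum mean of 50 or 200 reads left 40 or 33 well-covered members. Standard errors of the 6 thin members at the higher dose were 0.16 to 0.37.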
